A study of Homo sapiens with 43 samples.

Results

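Brn2 bound 607 sites in the lung squamous cell carcinoma line NCI-H520 that had no overlapping Brn2 peak in the line LK2, the other line in which Brn2 was mapped. These NCI-H520-only Brn2 sites are 46.8% of the 1298 Brn2 peaks listed for NCI-H520 on chromosomes 1 to 22 and X, and they belong to 5420 merged Brn2 sites of both lines. They were chosen by presence in the NCI-H520 Brn2 list and by the lack of even 1 bp of overlap with the LK2 Brn2 list, so the Brn2 contrast between the lines is the rule and not a finding. The other 691 NCI-H520 peaks overlapped an LK2 peak and are called shared sites, and 4170 LK2 peaks overlapped no NCI-H520 peak and are called LK2-only sites. Most NCI-H520-only sites were weak peaks outside acetylated chromatin. A smaller group of 200 sites lay in NCI-H520 acetylated chromatin, often in broad domains. Of these, 89 had a Sox2 peak in NCI-H520 and 111 had none. Over all merged Brn2 sites, 1026 of the 2818 acetylated in NCI-H520 had one.

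Brn2 is a POU-domain transcription factor of neural progenitors and neurons, also named POU3F2. POU factors often bind DNA beside a partner of the Sox family, and in neural progenitors Brn2 and Sox2 occupy many enhancers together. Sox2 is a stem and progenitor cell factor that is frequently gained in squamous tumours. Acetylation of histone H3 at lysine 27 (H3K27ac) marks active promoters and enhancers, so a binding site without it in the same cells lies outside chromatin with that sign of activity.

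The series mapped H3K27ac in 13 unmodified human squamous lung cancer lines by chromatin immunoprecipitation and sequencing (ChIP-seq). NCI-H520 and LK2 also had Sox2 and Brn2 ChIP, HCC95, KNS62 and HCC2814 also had Sox2 ChIP, and 8 lines had H3K27ac ChIP alone (HCC2279, EBC-1, HARA, SQ-1, NCI-H2887, LC-1/SQSF, Calu-1 and HCC2450). The LK2 derivatives LK2_DNp63 and LK2_GFP had H3K27ac and Sox2 ChIP, and LK2_DNp63 had p63 ChIP as well. All are established lines grown in the same medium, with 2 H3K27ac libraries each for NCI-H520 and LK2 and 1 library for every other line and target. Whether libraries of a line stem from separate cultures is not stated in the labels, and the spread between them may be technical.

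The deposited data are peak lists without read counts, and the depth of every library is unknown. The NCI-H520 Brn2 list was shorter than that of LK2, with 1298 against 4819 peaks used, and covered 0.370 Mb against 2.09 Mb. NCI-H520 had 12048 Sox2 peaks and LK2 had 7611. The H3K27ac lists held 24619 and 29219 peaks in the NCI-H520 libraries, 30641 and 16470 in the LK2 libraries, and 29473 to 43480 in the other 11 lines. No gene annotation of the files' build (hg19, GRCh37) was used here, so sites are given by 1-based hg19 position without gene names, their sequence is not shown, and the labelled lines were not checked against marker genes.

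The NCI-H520-only sites stood in the lower part of their own list. Their scores, the authors' value per peak, had a median of 56.9 (quartiles 52.3 and 61.7, range 50 to 188), and shared sites had a median of 120 (quartiles 69.9 and 220, range 50.1 to 1103). None of the 100 best-scored NCI-H520 Brn2 peaks was NCI-H520-only, and the best of them ranked 213 of 1298. At or above the median score of the list lay 103 NCI-H520-only sites (17.0%) and 546 shared sites (79.0%). A single tied score of 50.14 was held by 91 NCI-H520-only and 23 shared peaks. The score comes from the Brn2 contrast that chose the sites, so these values are given as a description without a test.

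NCI-H520-only peaks were also narrow. Their median width was 221 bp (quartiles 199 and 236, range 116 to 4027 bp), against 298 bp (quartiles 227 and 381, range 100 to 944 bp) at shared sites. Wider than 500 bp were 13 NCI-H520-only and 71 shared peaks. Within a score band the widths were close: between scores of 60 and 70 the median was 208 bp at NCI-H520-only and 218 bp at shared sites, and at scores of 100 or more it was 354 bp and 355 bp.

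**Figure D1:**
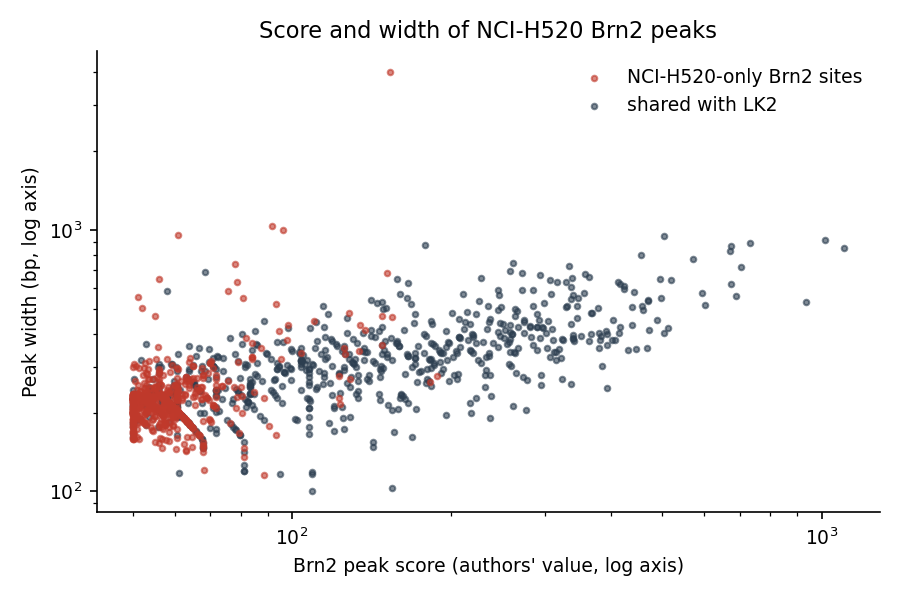
Score (authors' value, log axis) against width in bp (log axis) of each NCI-H520 Brn2 peak, with 607 NCI-H520-only sites and 691 sites shared with LK2. NCI-H520-only sites crowd at the low end, with a median score of 56.9 and a median width of 221 bp, and 1 site stands apart at 4027 bp.

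By distance to LK2 peaks, the rule's threshold left few borderline sites. By score many lay near the list's lowest value of 50, with 244 of the 607 scored 50 to 55. The nearest LK2 Brn2 peak lay at a median distance of 239.9 kb from an NCI-H520-only site, and 16 sites had one within 1 kb. Just inside the rule were sites on chromosome 17 (48796815 to 48796985) and chromosome 1 (234508715 to 234508887), which missed an LK2 peak by 7 and 8 bp, followed by sites on chromosome 5 (139495437 to 139495691), chromosome 4 (17814891 to 17815093) and chromosome 6 (35435538 to 35435767) at 120, 131 and 171 bp. The first pair was acetylated in all 13 lines. The shared sites with the smallest overlaps were on chromosome X (13751876 to 13752088), chromosome 8 (127048319 to 127048495), chromosome 5 (173848167 to 173848405), chromosome 2 (25195556 to 25195771) and chromosome 9 (130214175 to 130214274). Their overlaps with LK2 peaks were 82, 86, 92, 94 and 100 bp, far above the limit of 1 bp.

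H3K27ac, which the rule did not use, was infrequent at the NCI-H520-only sites. In NCI-H520 itself 184 sites (30.3%, Wilson 95% interval 26.8 to 34.1) overlapped an H3K27ac peak of replicate 1 and 188 sites (31.0%, 27.4 to 34.8) one of replicate 2, against 47.4% and 46.5% of all merged Brn2 sites. In LK2 the counts were 85 (14%) in replicate 1 and 81 (13.3%) in replicate 2, against 42.3% and 39.4% of all merged Brn2 sites. Both NCI-H520 libraries thus lay well above both LK2 libraries.

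The other 11 lines were close to LK2. Of the lines with Sox2 ChIP, HCC95 acetylated 71 NCI-H520-only sites (11.7%, against 33.1% of all merged Brn2 sites), KNS62 71 (11.7%, against 35.8%) and HCC2814 58 (9.56%, against 29.7%). Of the lines with H3K27ac alone, the highest were LC-1/SQSF with 82 (13.5%, against 36.8%), HCC2450 with 76 (12.5%, against 32.2%), HCC2279 with 72 (11.9%, against 33.2%) and EBC-1 with 69 (11.4%, against 31.2%). Below them were HARA with 68 (11.2%, against 33.9%), NCI-H2887 with 59 (9.72%, against 28.9%), Calu-1 with 58 (9.56%, against 30.5%) and SQ-1 with 45 (7.41%, against 26.8%). Both NCI-H520 libraries lay above every library of the other 12 lines, and every share lay below that of all Brn2 sites in the same library. These intervals, and those below, cover counting error alone.

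NCI-H520 had the highest acetylated share of the 13 lines, 30.6% ± 0.466 (SD, n = 2 libraries) against a mean of 11.1% ± 1.81 over the other 12 lines (SD, n = 12 lines). The difference was 19.5 percentage points, and its two-sided exact permutation p was 0.0769 (Benjamini-Hochberg adjusted 0.0769 over 3 tests), the smallest that 1 line against 12 allows, so this comparison cannot pass 0.05. LK2 was next with 13.7% ± 0.466 (SD, n = 2 libraries), close to LC-1/SQSF (13.5%), and the remaining lines averaged 10.9% ± 1.71 (SD, n = 11 lines). The first rank of NCI-H520 was not particular to NCI-H520-only sites. It was also the highest line at shared sites (93.2%, others at most 90.7%) and at LK2-only sites (42.0%, others at most 38.1%).

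**Figure D2:**
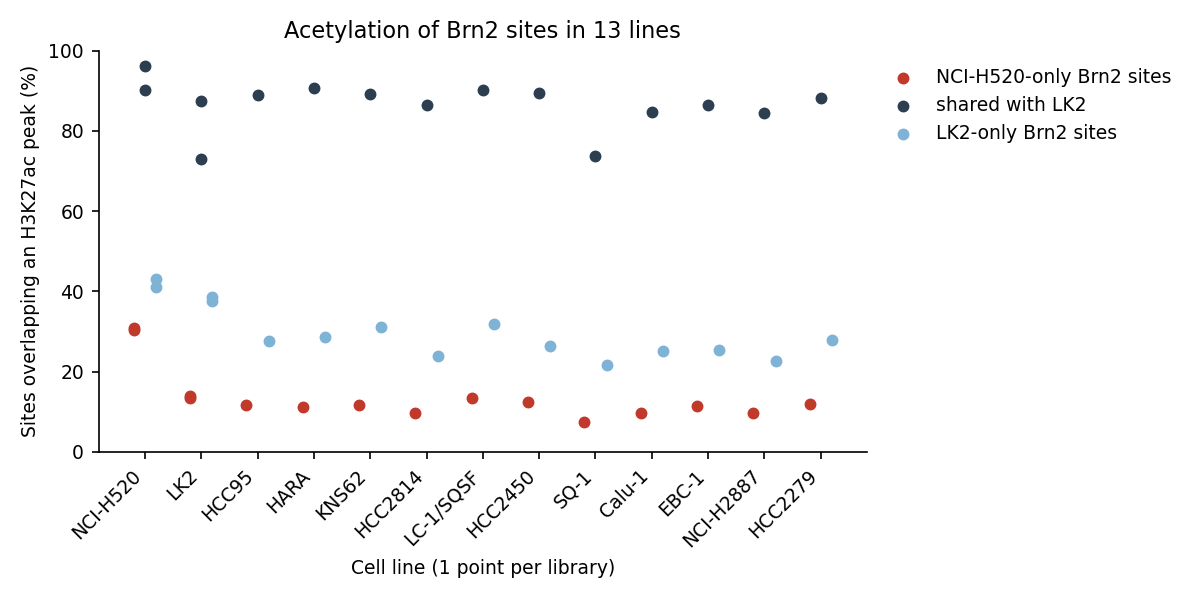
Percentage of Brn2 sites that overlapped an H3K27ac peak in each library of the 13 lines (1 point per library, 2 libraries for NCI-H520 and LK2), for NCI-H520-only, shared and LK2-only sites. NCI-H520-only sites are lowest in every line, reach 30.3% and 31.0% in NCI-H520 and stay between 7.41% and 14% elsewhere.

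Set against the Brn2 sites that LK2 shares, the NCI-H520-only sites were far less often acetylated in every line. Shared sites were acetylated in 93.2% of cases in NCI-H520, in 80.2% in LK2 and in 73.8% (SQ-1) to 90.7% (HARA) in the other 11 lines. The difference, NCI-H520-only minus shared, averaged -74.0 percentage points (SD 5.26, n = 13 lines) and ran from -79.5 to -62.6. It was negative in 13 of 13 lines (two-sided exact sign-flip permutation p = 0.000244, the smallest possible with 13 lines, adjusted 0.000366). All lines were scored at the same sites, so this p describes agreement among lines and not variation between sites. The smallest gap was in NCI-H520.

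The gap in NCI-H520 was present within every band of Brn2 peak scores. Among NCI-H520 peaks scored 50 to 55, 19.7% and 18.4% of 244 NCI-H520-only sites were acetylated in the 2 NCI-H520 libraries, against 88% and 92% of 50 shared sites. Between 60 and 70 the shares were 37.5% and 38.3% of 128 NCI-H520-only sites, against 87.3% and 93.7% of 79 shared sites. From 100 upwards they were 78.9% and 84.2% of 19 NCI-H520-only sites, against 92.4% and 98.0% of 407 shared sites. Acetylation of the NCI-H520-only sites was thus more frequent in each higher band, whereas that of shared sites was high throughout. With NCI-H520 Brn2 peaks of both classes restricted to scores under 70, a choice made after seeing the data, the mean difference over the 13 lines was -63.2 percentage points.

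**Figure D3:**
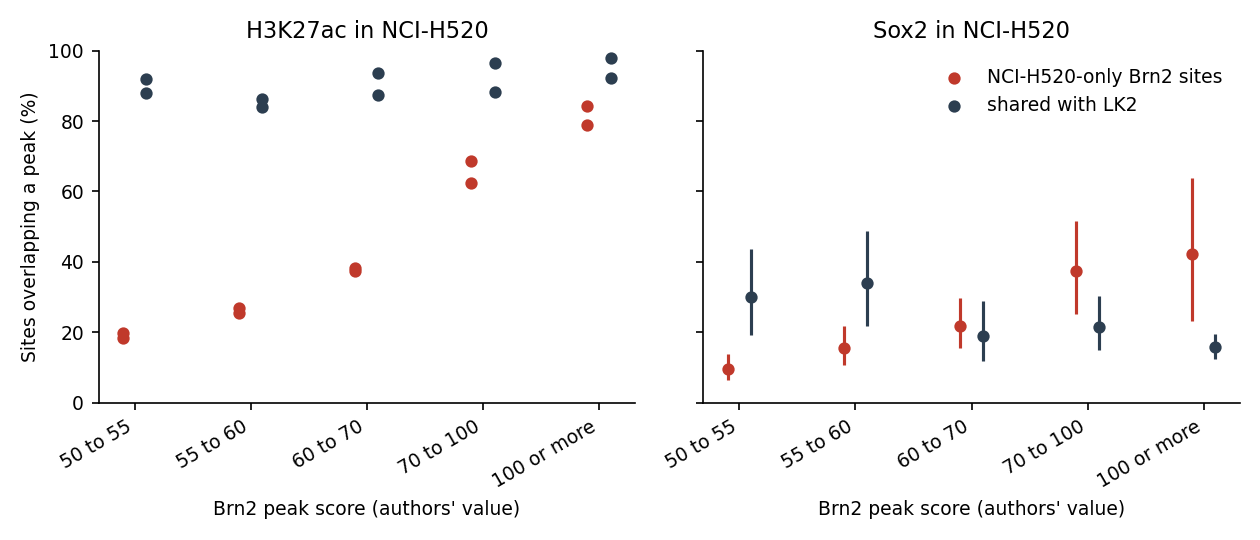
NCI-H520-only and shared Brn2 sites by band of Brn2 peak score, with the percentage overlapping H3K27ac peaks of NCI-H520 (left, 1 point per library) and a Sox2 peak of NCI-H520 (right, 1 library, bars are Wilson 95% intervals). Acetylation of NCI-H520-only sites runs from under 20% in the lowest band to 84.2% in the highest, and their Sox2 share from 9.43% to 42.1%.

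LK2-only sites were more often acetylated than NCI-H520-only sites as well. They were acetylated in 42.0% of cases in NCI-H520, although NCI-H520 listed no Brn2 peak there, in 38.1% in LK2 and in 26.5% on average in the other 11 lines (SD 3.27, n = 11 lines). The difference, NCI-H520-only minus LK2-only, averaged -16.0 percentage points (SD 3.38, n = 13 lines), ran from -24.5 to -11.4 and was negative in 13 of 13 lines (exact sign-flip permutation p = 0.000244, adjusted 0.000366). It was largest in LK2 and smallest in NCI-H520. With each Brn2 list restricted to scores at or above its median, the mean difference was -7.92 percentage points (exact sign-flip permutation p = 0.00488). That p exceeds the smallest possible in this test, 0.000244, so at those scores the difference was not negative in all 13 lines. The lists of the 2 lines differ in length and their scores are not comparable, so this gap compares the lists as deposited. Here too the p-values describe agreement among lines scored at the same sites.

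Counted over lines, 366 of the 607 NCI-H520-only sites (60.3%, 56.4 to 64.1) were acetylated in none of the 13 lines, against 31.8% of all merged Brn2 sites. A further 87 sites (14.3%, near the 12.6% of all merged Brn2 sites) were acetylated in 1 line, and for 64 of them that line was NCI-H520. No other line had more than 4 such sites of its own (EBC-1 and NCI-H2887), and LK2 had 1. At the other end 24 sites (3.95%) were acetylated in all 13 lines, against 18.4% of all merged Brn2 sites and 449 of the 691 shared sites (65.0%). The NCI-H520-only sites therefore fell mainly at 0 lines and the shared sites at 13 lines.

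**Figure D4:**
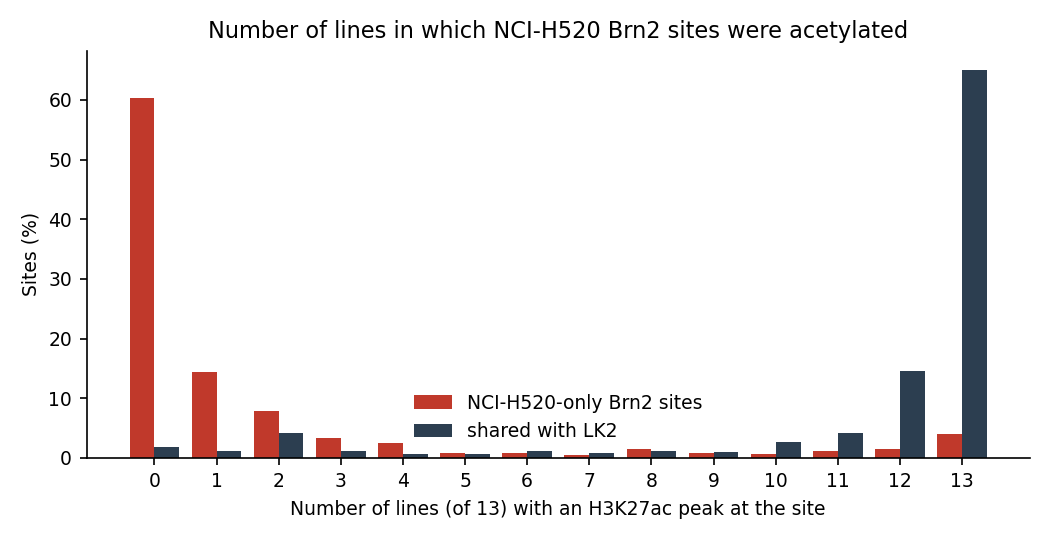
Percentage of 607 NCI-H520-only and 691 shared Brn2 sites by the number of lines, 0 to 13, with an H3K27ac peak at the site (either library for NCI-H520 and LK2). NCI-H520-only sites peak at 0 lines with 60.3% and shared sites at 13 lines with 65.0%.

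In NCI-H520, 200 sites (32.9%) were acetylated in at least 1 library, against 52% of all merged Brn2 sites, and 172 of them in both. Of these 200 sites LK2 acetylated 101 in either of its 2 libraries (50.5%, 43.6 to 57.4), against 79.5% of all merged Brn2 sites acetylated in NCI-H520. Taken singly, its replicate 1 held 85 (42.5%, against 71.5%) and its replicate 2 held 78 (39%, against 65.9%). With 1 library each, LC-1/SQSF acetylated 76 (38.0%, 31.6 to 44.9, against 60.8%), HCC95 67 (33.5%, against 56.7%), and SQ-1 the fewest with 40 (20%, against 45.7%). Each of these lines thus held a smaller share of the NCI-H520-only sites than of all merged Brn2 sites acetylated in NCI-H520. Conversely, of 104 NCI-H520-only sites acetylated in LK2 (17.1%, against 48.2% of all merged Brn2 sites), 101 were acetylated in NCI-H520 too. Over all merged Brn2 sites, 2239 of the 2611 acetylated in LK2 were acetylated in NCI-H520. At the 104 sites LK2 thus had acetylation without a listed Brn2 peak.

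The 200 acetylated sites divided into 4 patterns. In NCI-H520 alone were 64 sites (10.5%, against 5.41% of all merged Brn2 sites). In NCI-H520 and LK2 and none of the other 11 lines were 33 sites (5.44%, against 9.89%), a count that was 14 when both libraries of each line had to hold the site. In NCI-H520 with another set of 1 to 11 lines were 79 sites (13%, against 18.3%), and the 24 sites of all 13 lines complete the number. Another 41 sites (6.75%, against 16.3%) were acetylated in other lines and not in NCI-H520.

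Acetylated NCI-H520-only sites lay in broad and high-scored H3K27ac peaks. The host peak in NCI-H520 had a median width of 3735 bp in replicate 1 and 3880 bp in replicate 2, whereas all H3K27ac peaks of these libraries had medians of 1329 and 1206 bp the hosts of shared sites 2144 and 2315 bp, and those of LK2-only sites 2666 and 2392 bp. Of the NCI-H520-only sites in a host peak, 56.0% and 56.4% lay in a peak at or above the 90th percentile of score, against 16.5% and 27.7% of the shared sites and 34.2% and 34.7% of the LK2-only sites in one. In LK2 the hosts of NCI-H520-only sites had median widths of 1176 and 1934 bp, against 1160 and 1486 bp at shared sites. Broad peaks overlap a site more readily than narrow ones, and no test was made of these widths.

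NCI-H520-only sites outside acetylated chromatin were mostly far from it, and this distance was not measured for other Brn2 sites. The 407 NCI-H520-only sites with no H3K27ac peak in either NCI-H520 library lay at a median of 71.8 kb from the nearest such peak, and 44 of them (10.8%) within 5 kb.

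Sox2 was then examined at the NCI-H520-only sites. In NCI-H520, 103 sites (17.0%, 14.2 to 20.2) overlapped a Sox2 peak, against 26.2% of all merged Brn2 sites. The share was 19.2% (16.5 to 22.4) at shared sites and 28.2% (26.9 to 29.6) at LK2-only sites. LK2 Sox2 peaks overlapped 40 NCI-H520-only sites (6.59%, 4.88 to 8.85), against 36.2% of all merged Brn2 sites, 8.10% (6.29 to 10.4) of shared and 44.7% (43.2 to 46.3) of LK2-only sites. Sox2 shares at NCI-H520-only and shared sites had overlapping intervals in either line, and each factor has 1 library per line, so no test was made.

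Sox2 from NCI-H520 and LK2 met at 35 of the sites (5.77%, against 18.4% of all merged Brn2 sites). NCI-H520 alone of the pair had Sox2 at 68 sites, LK2 alone at 5, and neither at 499. Of the 35 sites with Sox2 in both lines, 34 also had a Sox2 peak in LK2_GFP, and of the 68 sites with Sox2 in NCI-H520 and none in LK2, 24 had one in LK2_GFP. Brn2 was listed in NCI-H520 and not in LK2 at all of these, so 35 sites carried Sox2 in both lines beside Brn2 in one list.

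Most sites with Sox2 were acetylated, as they were over all merged Brn2 sites. Of the 103 NCI-H520-only sites with NCI-H520 Sox2, 89 were acetylated in NCI-H520 (86.4%, against 72.4% of all merged Brn2 sites with it). Of the 499 sites with Sox2 in neither line, 107 were acetylated (21.4%, against 50.8%). Among the 366 sites acetylated in no line, 11 (3.01%, 1.69 to 5.30) carried NCI-H520 Sox2, against 15.9% of all merged Brn2 sites in that class. That share was 28 of 64 sites (43.8%, 32.3 to 55.9, against 56.0%) where NCI-H520 alone was acetylated. It was 24 of 33 (72.7%, 55.8 to 84.9), near the 66.8% of all merged Brn2 sites, where NCI-H520 and LK2 were and none of the other 11 lines. In the remaining classes it was 36 of 79 (45.6%, 35.0 to 56.5, against 36.4%) where NCI-H520 and other sets of lines were, and 1 of 24 (4.17%, 0.739 to 20.2, against 14.4%) where all 13 lines were. The class of NCI-H520 and LK2 alone thus had the highest share among NCI-H520-only sites and over all merged Brn2 sites.

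Shared sites carried NCI-H520 Sox2 in 23 of 25 cases (92%) where NCI-H520 and LK2 alone were acetylated and in 59 of 449 (13.1%) where all 13 lines were. Of the 12 shared sites acetylated in no line, 8 carried NCI-H520 Sox2. LK2 Sox2 was found at 10 of the 33 NCI-H520-only sites acetylated in NCI-H520 and LK2 alone (30.3%, 17.4 to 47.3), against 72.2% of all merged Brn2 sites of that class. It was found at 7 of the 64 sites acetylated in NCI-H520 alone (10.9%, 5.40 to 20.9), against 47.8%. Over all merged Brn2 sites too the first of these classes had the highest share.

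**Figure D5:**
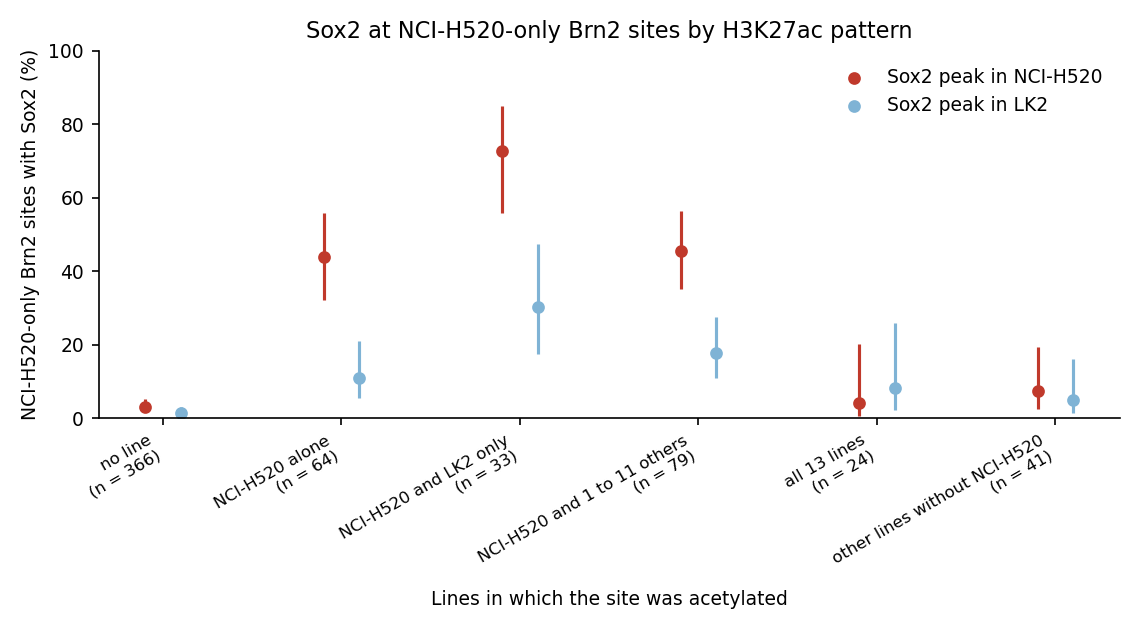
Percentage of NCI-H520-only Brn2 sites with a Sox2 peak in NCI-H520 and in LK2, by the lines in which the site was acetylated (points, with Wilson 95% intervals as bars and n the number of sites; the class of NCI-H520 with 1 to 11 others leaves out the sites of NCI-H520 and LK2 alone). The NCI-H520 Sox2 share is 72.7% where NCI-H520 and LK2 alone were acetylated and 3.01% where no line was.

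The Sox2 share of NCI-H520-only sites was higher in each higher band of Brn2 score. It was 9.43% (6.36 to 13.7), 15.5%, 21.9%, 37.5% and 42.1% (23.1 to 63.7) in the bands from 50 to 55, 55 to 60, 60 to 70, 70 to 100 and 100 upwards. Shared sites had 30% (19.1 to 43.8), 34.1%, 19.0%, 21.6% and 15.7% (12.5 to 19.6), with no steady order, and the values of the classes were closest between 60 and 70. These are shares of 1 Sox2 library, in bands of a score linked to the rule, and no difference between the classes was tested. Where peaks of both factors overlapped at an NCI-H520-only site, a median of 98 bp lay between midpoints, against 87 bp at shared and 76.5 bp at LK2-only sites. Overlap itself keeps midpoints near each other. The Sox2 peaks at NCI-H520-only sites were strong ones, with a median at the 86.9th percentile of score in the NCI-H520 Sox2 list. That median was at the 62.8th at shared and the 72.2th at LK2-only sites.

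Other factor lists rarely reached the NCI-H520-only sites. Sox2 peaks of HCC95, KNS62 and HCC2814 overlapped 20 (3.29%), 16 (2.64%) and 23 (3.79%) of them, against 11%, 6.97% and 7.4% of all merged Brn2 sites. At shared sites the shares in HCC95, KNS62 and HCC2814 were 13.2% (10.9 to 15.9), 4.05% (2.82 to 5.79) and 4.63% (3.30 to 6.46). The intervals at NCI-H520-only sites were 2.14 to 5.03, 1.63 to 4.24 and 2.54 to 5.62. With 1 Sox2 library per line, differences between the classes were not tested. Of the 103 sites with NCI-H520 Sox2, 19 had Sox2 in any of those 3 lines, and 3 sites had Sox2 in all 5 lines. Such counts were not made over all merged Brn2 sites, so they have no reference. In the LK2 derivatives Sox2 was found at 19 sites in LK2_DNp63 (3.13%, against 24.8% of all merged Brn2 sites) and at 67 in LK2_GFP (11%, against 46.4%). H3K27ac was found at 79 sites in LK2_DNp63 (13%, against 46% of all merged Brn2 sites) and at 87 in LK2_GFP (14.3%, against 51.6%). The p63 list of LK2_DNp63 held 1 site (against 1.64% of all merged Brn2 sites).

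The 10 best-scored NCI-H520-only sites show the range of patterns. The first, on chromosome 6 (3195961 to 3196236, score 188, rank 213), was acetylated in NCI-H520 and HCC2450 and had no Sox2 peak. The second, on chromosome 9 (8682105 to 8682367, score 182), carried Sox2 in NCI-H520 and was acetylated in NCI-H520, LK2 and LC-1/SQSF, inside an NCI-H520 peak 11934 bp wide in replicate 2. A site on chromosome 12 (76020477 to 76020939, score 154) was acetylated in NCI-H520 alone, inside a peak of 15236 bp in replicate 2, with no Sox2 and an LK2 Brn2 peak 8.41 kb away. A site on chromosome 1 (45990557 to 45991239, score 151) carried Sox2 in NCI-H520, LK2, HCC95 and HCC2814 and was acetylated in 6 lines, and an LK2 Brn2 peak lay 1.92 kb away. A site on chromosome 17 (55532350 to 55532819, score 148) carried Sox2 in NCI-H520 with 5 bp between midpoints and was acetylated in NCI-H520 and LC-1/SQSF.

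Among the other 5, none had both Sox2 and acetylation in NCI-H520. On chromosome 16 (4524505 to 4524866, score 148) a site was acetylated in 11 lines, LK2 and Calu-1 excepted. Sites on chromosome 15 (36871333 to 36871746, score 138) and chromosome 16 (74401977 to 74402320, score 134) were acetylated in all 13 lines, without Sox2. A site on chromosome X (63615163 to 63615596, score 135) was acetylated in HCC95, HARA and HCC2279 and not in NCI-H520. The site on chromosome 10 (42596685 to 42600711, score 153) was the widest of all with 4027 bp, coincided with a Sox2 peak of NCI-H520 at the 100th percentile of score (4025 bp wide, midpoints 1 bp apart), also lay under Sox2 peaks of HCC95, KNS62 and HCC2814 and under none of LK2, and was not acetylated in NCI-H520. Input signal was not examined there, so whether these coinciding peaks mark factor binding was not tested.

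Among sites with Sox2 in both lines, the chromosome 1 site was the best-scored. Those next in score lay on chromosome 11 (77157857 to 77158336, score 128, acetylated in NCI-H520, LK2, HCC95 and LC-1/SQSF), chromosome 2 (46206089 to 46206469, score 97.9, NCI-H520 alone) and chromosome 5 (124395030 to 124395549, score 93.5, NCI-H520, LK2 and HCC95). Their NCI-H520 Sox2 peaks stood at the 94.5th, 98.7th and 99.0th percentile of score. The last, on chromosome X (23825606 to 23825958, score 87.2), was acetylated in 7 lines without LK2. Acetylated in both NCI-H520 libraries and in no other line were also sites on chromosome 5 at 123463443 to 123463891 (score 110, with NCI-H520 Sox2) and at 168433973 to 168434311 (score 104, without Sox2).

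Sites without acetylation in any line reached lower scores. The best lay on chromosome 19 (3914215 to 3914549, score 126), chromosome 5 (114012607 to 114013039, score 98.2), chromosome 2 (92268928 to 92269963, score 91.5), chromosome 11 (109943800 to 109943915, score 88.7) and chromosome 6 (52028347 to 52028674, score 83.9), and none carried Sox2. Over all 366 such sites the median score was 55.4, and over the 64 sites acetylated in NCI-H520 alone it was 59.9. Among sites acetylated in all 13 lines, those after the pair named above lay on chromosome 3 (183851874 to 183852101, score 88.6), chromosome 9 (35079988 to 35080169, score 76.5) and chromosome 15 (67814002 to 67814297, score 70.9), and the first of these had Sox2 in LK2, HCC95 and KNS62 but not in NCI-H520.

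NCI-H520-only sites were mostly scattered, with 431 of the 506 occupied 1 Mb bins holding 1 site. The fullest bin, chromosome 5 from 168000001 to 169000000, held 5 sites, all acetylated in NCI-H520 and 4 with NCI-H520 Sox2, beside 1 LK2-only and no shared site. A pair of them, at 168416850 to 168417074 (score 59.99) and 168417360 to 168417629 (score 129), fell under the same Sox2 peak of 913 bp and the same H3K27ac peaks of 10087 and 9991 bp. With the sites at 168433973 and at 168479822 to 168480050 (score 78.8), 4 of the 5 were acetylated in NCI-H520 alone, and the last, at 168591711 to 168591906 (score 57.0), was acetylated in 8 lines and carried Sox2 in all 5 lines. The nearest LK2 Brn2 peak lay 251 to 426 kb away.

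The next bins had 4 sites each. On chromosome 16 from 74000001 to 75000000, 3 of the 4 sites were acetylated in NCI-H520 and 1 had Sox2 there, at 74220419 to 74220829 (score 94.5), which was acetylated in NCI-H520 and LK2 alone. On chromosome 5 from 124000001 to 125000000, 3 of the 4 sites were acetylated in NCI-H520 and had Sox2 there, inside peaks of 5954 to 12230 bp in replicate 1. That bin also held 5 LK2-only sites, whereas the chromosome 16 bin held none.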

How the data were processed

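Per the labels' protocols, H3K27ac, Sox2 and p63 ChIP used formaldehyde and sonication, whereas the Brn2 lists come from another preparation, with disuccinimidyl glutarate added to the formaldehyde and micrococcal nuclease digestion before sonication. Bowtie2 and hg19 (GRCh37) are named in the submitters' processing notes. Peak names begin with MACS. For the caller, version, threshold and use of inputs were not given in the sources used. The deposited score per peak is the authors' own value on an unstated scale, at least 50, and was used for ranking inside 1 list at a time. The 27 peak lists were used, and 16 input samples were not analysed here. Peaks off chromosomes 1 to 22 and X were left out (2092 of 652792 in all lists).

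Overlap meant at least 1 bp. Shares per line averaged both libraries of NCI-H520 and LK2, and counts of lines took either library. Differences over lines were tested with two-sided exact permutation tests (Benjamini-Hochberg over 3). Wilson 95% intervals, Python 3.11.15 and scipy 1.17.1 were used. Named sites were the best-scored of each class, the 5 nearest to an LK2 Brn2 peak, the 5 shared sites with the smallest overlap, and the 3 fullest 1 Mb bins. The members and lists were chosen with earlier results of these data known. Overlap counting and tests were checked on simulated data. Alternatives covered overlap, window, score, list length, membership and left-out libraries or lines. Planned gene names, motifs and sequences were not produced, since no genome or annotation of the files' build was used here.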

Additional observations from a re-analysis of the deposited data

Results flagged for a closer look

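Among the 8 lines with H3K27ac ChIP alone, SQ-1 stood apart at the shared Brn2 sites, of which 73.8% were acetylated, with a gap to the next line of 0.624 of the whole range. It was also the lowest of the 8 at NCI-H520-only sites (7.41%), where its gap was 0.351 of the range and under Dixon's 95% critical value. A gap past that critical value arises by chance in about 1 in 20 groups, and 3 groups were examined.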

How the results depend on the processing

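Mean differences over lines kept their direction and their side of 0.05 under every alternative run: NCI-H520-only minus shared sites ran from -74.9 to -63.2 percentage points (exact p 0.000244 to 0.000488), and NCI-H520-only minus LK2-only sites from -16.6 to -7.92, the last at scores at or above each list's median (exact p 0.000244 to 0.00488), where not every line was negative. NCI-H520 minus the other lines ran from 16.4 to 40.9 points, always at the smallest possible p, 0.0769 or 0.0833. Leaving out 1 library or line moved these to -74.9 to -73.4, -16.3 to -15.2 and 19.2 to 19.8, and the acetylated share in NCI-H520 to 30.3% to 31.0%. Without NCI-H520 the comparison of that line has no value. The acetylated share, 30.6%, was 28.9% when 50% of the shorter interval had to be covered, 62.1% at or above the median score (103 sites), 29.7% with no LK2 Brn2 peak within 1 kb (591 sites), 37.4% with the LK2 Brn2 list cut to equal length (693 sites) 28.0% with 16470 top H3K27ac peaks per library and 25.7% at scores under 70. The NCI-H520 Sox2 share, 17.0%, became 34.0% at or above the median score, 20.2% with the LK2 Brn2 list cut to equal length and 14.2% with 7511 top Sox2 peaks per list. The LK2 Sox2 share, 6.59%, became 14.6% at or above the median score, 8.95% with the LK2 Brn2 list cut to equal length and 11% with LK2_GFP. Sites acetylated in NCI-H520 and LK2 alone numbered 14 when both libraries of each line had to hold them. The cause of these shifts was not tested. The score limit of 70 and leaving out chromosome 5 were chosen after seeing the data. No paired analysis was possible because the replicate numbers of NCI-H520 and LK2 mark H3K27ac libraries that were averaged to 1 value per line. Depth is unknown, so a site missing from a list may be bound or acetylated below the authors' threshold.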

Other observations

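NCI-H520-only Brn2 sites were spread unevenly over chromosomes. Chromosome 5 held 71 of them (11.7%, Wilson 95% interval 9.38 to 14.5), against 4.92% (3.54 to 6.80) of shared sites, 7.03% of LK2-only sites, 7.85% of NCI-H520 Sox2 peaks and 6.06% of NCI-H520 H3K27ac peaks (replicate 1). Of the 71 sites 46 were acetylated in no line, 20 in NCI-H520, and 18 had NCI-H520 Sox2. Over all NCI-H520-only sites these shares were 60.3%, 32.9% and 17.0%. Chromosome 6 held 56 (9.23%, 7.17 to 11.8), against 5.07% (3.66 to 6.96) of shared and 5.88% of LK2-only sites. Chromosome 17 held 17 (2.80%, 1.76 to 4.44), against 7.67% (5.91 to 9.90) of shared and 5.04% of LK2-only sites. Chromosome 19 held 8 (1.32%, 0.669 to 2.58), against 6.08% (4.53 to 8.11) of shared sites, but LK2-only sites were as infrequent there (1.51%), and NCI-H520 Sox2 peaks had 2.32%. On chromosome 17, 13 of the 17 sites were acetylated in NCI-H520, and on chromosome 13, 1 of 18. Acetylated shares of all merged Brn2 sites were not computed by chromosome, so these counts have no such reference. These 23 chromosomes were compared without a test, and the copy number of NCI-H520 was not analysed here.

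After the site on chromosome 10, the widest NCI-H520-only sites lay on chromosome 2 (92268928 to 92269963, 1036 bp) and chromosome 8 (43094506 to 43095508, 1003 bp). Neither was acetylated in NCI-H520 nor had Sox2 there, and the second was acetylated and had Sox2 in HCC2814. These sites were chosen after their values were seen, and input signal was not examined at them.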
